A study of Homo sapiens with 2 samples.

Results

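The 9 genes described here encode the malic enzymes (ME1, ME2, ME3), the malate dehydrogenases (MDH1, MDH2), the NADP-dependent isocitrate dehydrogenases (IDH1, IDH2), pyruvate carboxylase (PC) and the mitochondrial phosphoenolpyruvate carboxykinase (PCK2). Each gene is represented by its transcript cluster, the unit in which this array summarises a gene, and the clusters were found by their annotated symbol. Each of the 9 symbols had 1 cluster of its own, and the 9 genes stood among 22465 named genes in all. The set was chosen by symbol with the parental and resistant log2 values already known, ME2 having one of the largest differences, so the values are a description and no test was made on them. Expression was measured on Affymetrix Human Transcriptome Array 2.0 microarrays, with 1 array of untreated parental FaDu cells. The other array was of cells labelled as FaDu and as resistant to cetuximab, an antibody against the epidermal growth factor receptor. FaDu is an established line of head and neck squamous carcinoma cells, and the labels do not give the cetuximab dose, how resistance arose, or whether the line is a clone. Neither culture was replicated, so a difference between the arrays has no error and cannot be told apart from a difference of line, culture, passage or array.

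The labels were checked against markers and against SMAD4, the neighbour of ME2. Of 9 markers of squamous epithelium, 6 were measured and all 6 were above background on both arrays (5.09 parental, 5.03 resistant). They spanned 11.39 to 17.25 log2 units on the parental array and 5.17 to 14.58 on the resistant array. On the resistant array 4 of the 6 passed 2-fold downward and 1 upward. The keratin genes KRT14 (11.39 parental, 5.17 resistant) and KRT5 (17.25 and 13.75), the desmosome gene DSP (15.31 and 12.31) and SFN (15.62 and 14.58) were lower. KRT14 was close to background on the resistant array. CDH1, the E-cadherin gene, differed by -0.71 log2 units, and the epithelial surface gene EPCAM (12.61 and 13.98) was higher. The 3 measured leukocyte markers were at or below background on both arrays. Of 3 endothelial markers, CDH5 (6.14 parental, 6.98 resistant) and, on the resistant array, PECAM1 (5.17) were above it, as was the fibroblast marker COL1A1 (5.22 and 5.26). The part of other cells in the differences was not tested. SMAD4, a transcription factor of TGF-beta signalling, stood at 4.60 on the parental array, below background, and at 10.81 on the resistant array. FaDu is known to have lost SMAD4 by deletion of both copies, and a signal of this gene on the resistant array goes against the FaDu part of its label. The array is called the one labelled as resistant. Whether it holds FaDu cells, and whether both cultures descend from 1 line, was not tested.

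Malic enzymes convert malate to pyruvate and form NADPH or NADH, and malate dehydrogenases interconvert malate and oxaloacetate. Isocitrate dehydrogenases of the NADP-dependent type form 2-oxoglutarate and NADPH. Pyruvate carboxylase refills the tricarboxylic acid (TCA) cycle with oxaloacetate, and PCK2 withdraws it as phosphoenolpyruvate. In tumour cells these enzymes are known for supplying NADPH to lipid synthesis and antioxidant defence and for keeping the cycle filled when its intermediates are used for growth. ME1, MDH1 and IDH1 are cytosolic (IDH1 is also peroxisomal), and the other 6 are mitochondrial.

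The sequences shown are the 250 bases before the outermost annotated start of the 3 malic enzyme genes, of PC, and of IDH1, which shares a motif with ME1 but differed in the other direction. They come from RefSeq on GRCh38.p14, in which all 9 genes matched, with 15 annotated starts. ME1 lies at chr6:83431052-83431301 (minus strand), ME2 at chr18:50878868-50879117 (plus), ME3 at chr11:86672617-86672866 (minus), IDH1 at chr2:208255072-208255321 (minus) and PC at chr11:66958384-66958633 (minus). Capitals mark every match, on either strand, to the antioxidant response element core TGACNNNGC, the AP-1 motif TGANTCA, the E-box CACGTG, the GC box GGGCGG and the CCAAT box CCAAT.
ME1: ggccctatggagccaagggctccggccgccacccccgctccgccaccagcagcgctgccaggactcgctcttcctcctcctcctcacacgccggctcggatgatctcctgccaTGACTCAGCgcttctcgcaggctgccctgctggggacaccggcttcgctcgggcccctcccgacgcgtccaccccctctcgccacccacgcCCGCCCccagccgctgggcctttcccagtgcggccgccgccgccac
ME2: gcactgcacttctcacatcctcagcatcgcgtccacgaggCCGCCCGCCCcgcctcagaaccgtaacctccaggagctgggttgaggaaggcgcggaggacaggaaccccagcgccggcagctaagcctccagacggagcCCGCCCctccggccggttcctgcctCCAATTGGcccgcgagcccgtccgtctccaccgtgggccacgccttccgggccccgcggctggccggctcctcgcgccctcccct
ME3: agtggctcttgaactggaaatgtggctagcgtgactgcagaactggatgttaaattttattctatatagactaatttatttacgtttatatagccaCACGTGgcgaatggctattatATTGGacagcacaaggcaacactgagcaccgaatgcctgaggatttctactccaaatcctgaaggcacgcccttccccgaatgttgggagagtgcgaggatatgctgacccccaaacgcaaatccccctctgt
IDH1: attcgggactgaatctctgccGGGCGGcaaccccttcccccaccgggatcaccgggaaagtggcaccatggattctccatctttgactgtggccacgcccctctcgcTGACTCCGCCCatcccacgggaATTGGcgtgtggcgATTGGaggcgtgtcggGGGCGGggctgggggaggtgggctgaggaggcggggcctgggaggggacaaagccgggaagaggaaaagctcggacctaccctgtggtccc
PC: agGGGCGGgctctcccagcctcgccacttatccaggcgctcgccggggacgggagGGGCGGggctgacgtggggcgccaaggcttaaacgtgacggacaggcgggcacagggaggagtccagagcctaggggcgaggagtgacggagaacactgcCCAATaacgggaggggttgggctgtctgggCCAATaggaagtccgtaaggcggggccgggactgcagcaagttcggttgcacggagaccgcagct

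The antioxidant response element core, the motif bound by NRF2 with small MAF proteins, was found in the windows of ME1 and IDH1, with its first base 137 and 143 bases before the start. It was in no window of the other 7 genes, and 10.9% of 35116 promoter windows of this length held it. In ME1 the core overlaps a match to the AP-1 motif, which 6.57% of windows held. In IDH1 it overlaps a GC box instead. ME3 alone of the 9 genes held an E-box, at 154 bases before its outermost start. Another of its windows held a second one, 119 bases before an inner start. Of all windows 6.34% held an E-box, which is a share per window, while ME3 has 3 starts. The ME2 window held 3 GC boxes, of which a pair overlaps, and 2 overlapping CCAAT boxes. The PC window held 2 of each. GC boxes were in 42.6% and CCAAT boxes in 32.0% of all windows. GC content of the printed windows ran from 46.0% in ME3 to 74.0% in ME1. A match describes letters in a window and says nothing of binding in these cells.

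The malic enzyme genes all had higher values on the array labelled as resistant, by widely different amounts. ME2, the mitochondrial enzyme that uses NAD or NADP, stood at 4.12 log2 units on the parental array and 12.28 on the array labelled as resistant. The parental value was below the background level of that array (5.09, the 95th percentile of 364 olfactory receptor genes), so that ME2 was not above background in the parental line. Its fold is given as a bound, at least 146-fold higher. The deposited values differ by 8.16 log2 units. With values raised to background the difference was 7.19, and 6 of the 13707 named genes above background on at least 1 array then had a larger positive one.

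ME3, the mitochondrial NADP-dependent enzyme, stood at 7.17 on the parental array and 9.38 on the array labelled as resistant. It was above background on both and 4.63-fold higher on the latter, a difference of 2.21 log2 units. ME1, the cytosolic NADP-dependent enzyme, stood at 12.04 and 13.03. Its difference of 0.99 log2 units, 1.99-fold, lay just short of 2-fold, and it was 1.06 with each array centred on its median and 1.08 after quantile normalisation. An absolute difference of that size or more was found in 26.0% of genes above background, by their deposited values.

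**Figure D1:**
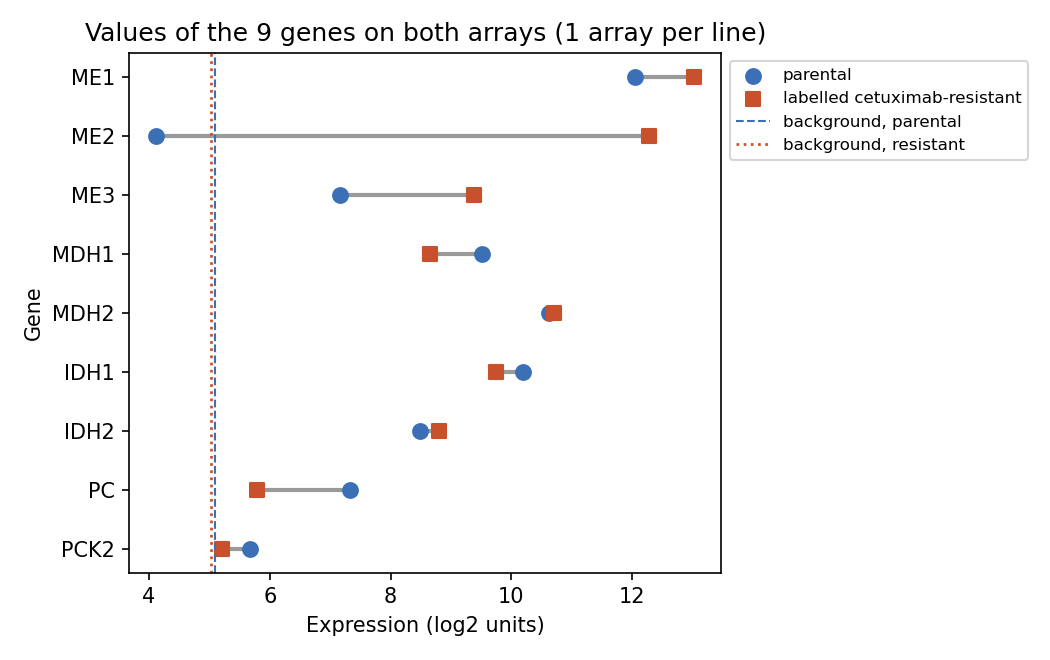
Log2 expression of each of the 9 genes on the parental array (circles) and on the array labelled as cetuximab-resistant (squares), with 1 array per line and no error. Dashed and dotted lines are the background levels of the arrays, and a row is read along itself since levels of different genes are not comparable. ME2 alone crosses the background level, from 4.12 to 12.28, while PC is lower (7.32 and 5.78) and the MDH2 points nearly coincide (10.62 and 10.71).

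The malate and isocitrate dehydrogenases differed by less than 2-fold. MDH1, the cytosolic enzyme of the malate-aspartate shuttle, had 9.51 log2 units on the parental array and 8.65 on the one labelled as resistant, 1.82-fold lower. MDH2, its mitochondrial counterpart in the TCA cycle, stood at 10.62 and 10.71, a difference of 0.09 log2 units. For MDH2, 89.7% of genes above background differed by at least as much. IDH1, the cytosolic NADPH-forming enzyme, stood at 10.20 and 9.75, 1.37-fold lower. IDH2, the mitochondrial enzyme, stood at 8.48 and 8.80, 1.25-fold higher. In both pairs the difference, resistant minus parental, was negative for the cytosolic gene and positive for the mitochondrial gene. All 4 differences were of a size that 31.0% or more of genes above background reached. IDH1-AS1, the antisense gene beside IDH1, stood at 3.56 on both arrays, below background.

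PC, which makes oxaloacetate from pyruvate, was the member that was at least 2-fold lower. It stood at 7.32 on the parental array and 5.78 on the array labelled as resistant, 2.91-fold lower, and remained above the background of 5.03. The difference was -1.54 log2 units. PCK2 stood at 5.67 and 5.21, close to background on both arrays. Its difference of -0.46 is about the SD of the differences among the olfactory receptor genes, 0.42 log2 units, which describes dim clusters and is no replicate error.

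Counted together, 2 of the 9 genes (ME2 and ME3) passed 2-fold upward on the array labelled as resistant and 1 (PC) downward. Over all named genes the shares were 8.32% higher and 7.40% lower, and over named genes above background on at least 1 array 13.6% and 12.0%. All 9 members passed that background level on at least 1 array. The median difference of the 9 genes was 0.09 log2 units, against -0.01 over all named genes and 0.00 over those above background. Without ME2 the median of the other 8 was -0.18, with 4 positive and 4 negative differences. The 6 mitochondrial genes had a median of 0.21 and a range from -1.54 to 8.16. The 3 cytosolic genes had a median of -0.45 and a range from -0.86 to 0.99. Since the members were chosen with the contrast known, nothing is read from these counts.

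**Figure D2:**
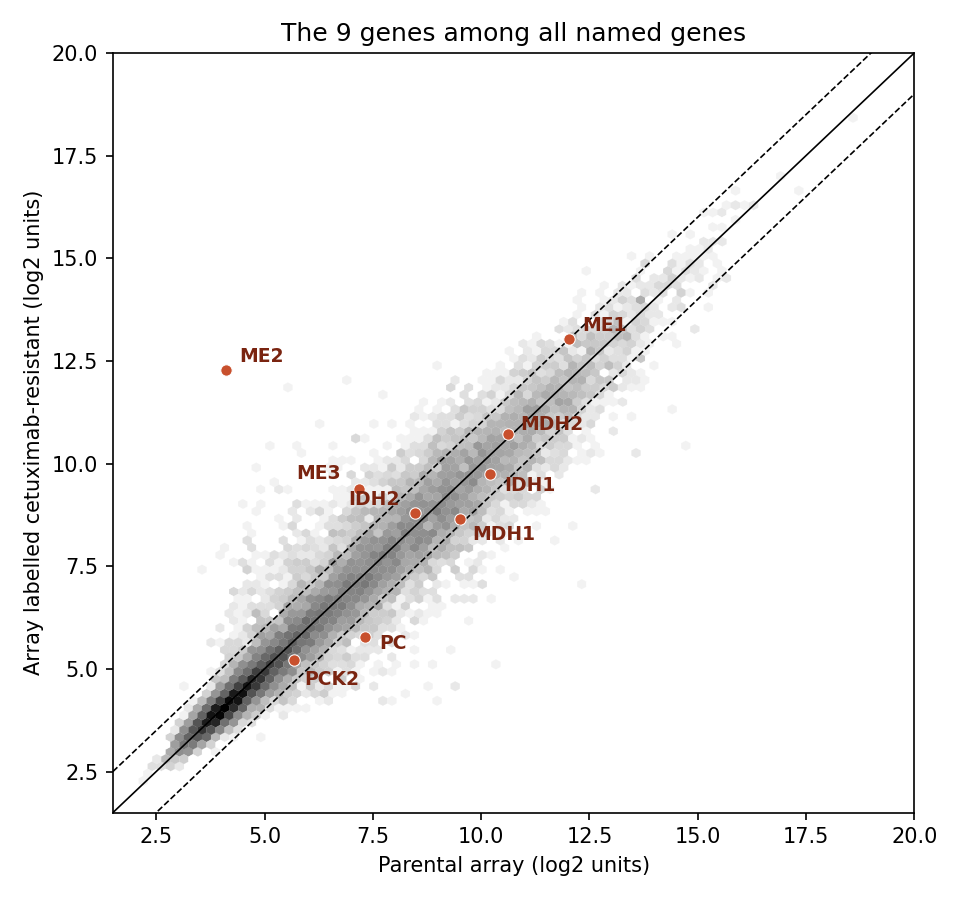
Log2 values of all 22465 named genes on the parental array (x axis) and on the array labelled as resistant (y axis), as shaded bins where darker holds more genes, with the 9 genes in orange. The solid line is equality and dashed lines are 2-fold. ME2 and ME3 lie above the upper line, ME1 at it (difference 0.99), PC below the lower line, and the other 5 between the lines.

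ME2 lay in a stretch of chromosome 18 where other genes were also higher on the array labelled as resistant. Of the 5 named genes on either side, 5 of 10 passed 2-fold upward and 0 downward, with a median difference of 0.61 log2 units. Over all named genes the shares were 8.32% upward and 7.40% downward, and over those above background on at least 1 array 13.6% and 12.0%. SMAD4, the second gene after ME2, was at least 52.9-fold higher. ELAC1, a tRNA-processing enzyme gene between ME2 and SMAD4, stood at 5.10 on the parental array, just above background, and at 6.17 on the other. MEX3C, an RNA-binding ubiquitin ligase gene, stood at 5.96 and 8.20. SKA1, a kinetochore gene on the other side of ME2, stood at 8.25 and 10.27, and CXXC1, which encodes a CpG-binding protein, at 6.87 and 8.30.

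The remaining 5 of these neighbours, RNA5SP458, MAPK4, MRO, LINC01630 and DCC, were at or below background on both arrays. Over the 10 genes on either side, 8 of 20 passed 2-fold upward and 0 downward, and the median was 0.60. The array does not measure DNA, so a loss or gain of this stretch was not tested.

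**Figure D3:**
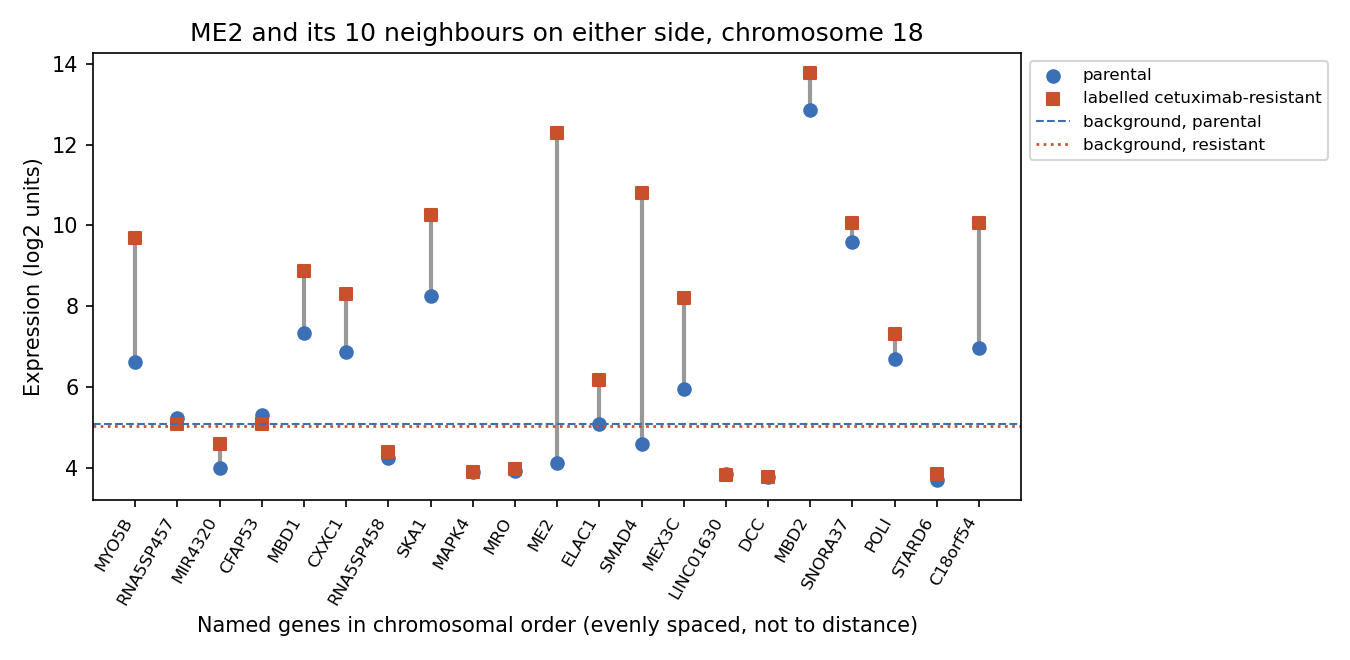
Log2 expression of ME2 and the 10 named genes on either side of it on chromosome 18, evenly spaced in gene order, on the parental array (circles) and the array labelled as resistant (squares). Lines are the background levels. ME2 and SMAD4 are the genes that go from below background to 12.28 and 10.81, and 8 of the 20 neighbours are at least 2-fold higher.

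The neighbours of the other 8 genes were described in the same way, and those named here were picked after their values were seen. Each count stands beside the shares over all named genes, 8.32% higher and 7.40% lower. Over named genes above background on at least 1 array the shares were larger, 13.6% and 12.0%. Around PC on chromosome 11, 4 of 10 neighbours were at least 2-fold lower and 0 higher, with a median of -0.90. CCS, the copper chaperone of superoxide dismutase, had a parental value of 8.75 and stood at 7.32 on the array labelled as resistant, and RCE1, a CAAX protease gene, at 10.33 and 9.11. Of the 10 differences around PC, 9 were negative, but only 8 of the 10 genes were above background on at least 1 array. Around PCK2 on chromosome 14, 4 of 10 neighbours were at least 2-fold lower and 0 higher, with a median of -0.15. All 10 differences were negative, but only 7 of the 10 genes were above background on at least 1 array. Some were as small as that of CARMIL3, -0.03, so the signs alone show little. The proteasome activator genes PSME1 (13.07 and 11.05) and PSME2 (12.41 and 10.56) were among them.

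Around IDH2 on chromosome 15, 4 of 10 neighbours were at least 2-fold lower and 1 higher, while IDH2 itself differed by 0.32. ANPEP, an aminopeptidase gene, was below background at 4.47 on the parental array and stood at 8.35 on the other, and SEMA4B, a semaphorin gene, stood at 11.07 and 8.22. Around ME3, also on chromosome 11, 2 of 10 were at least 2-fold higher and 0 lower, and these were PICALM (11.66 and 13.71), a clathrin assembly gene, and PRSS23 (8.80 and 10.15), a serine protease gene. Around ME1 and MDH2 1 of 10 neighbours each was at least 2-fold lower and 0 higher, and around MDH1 and IDH1 0 of 10 passed 2-fold in either direction.

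**Figure D4:**
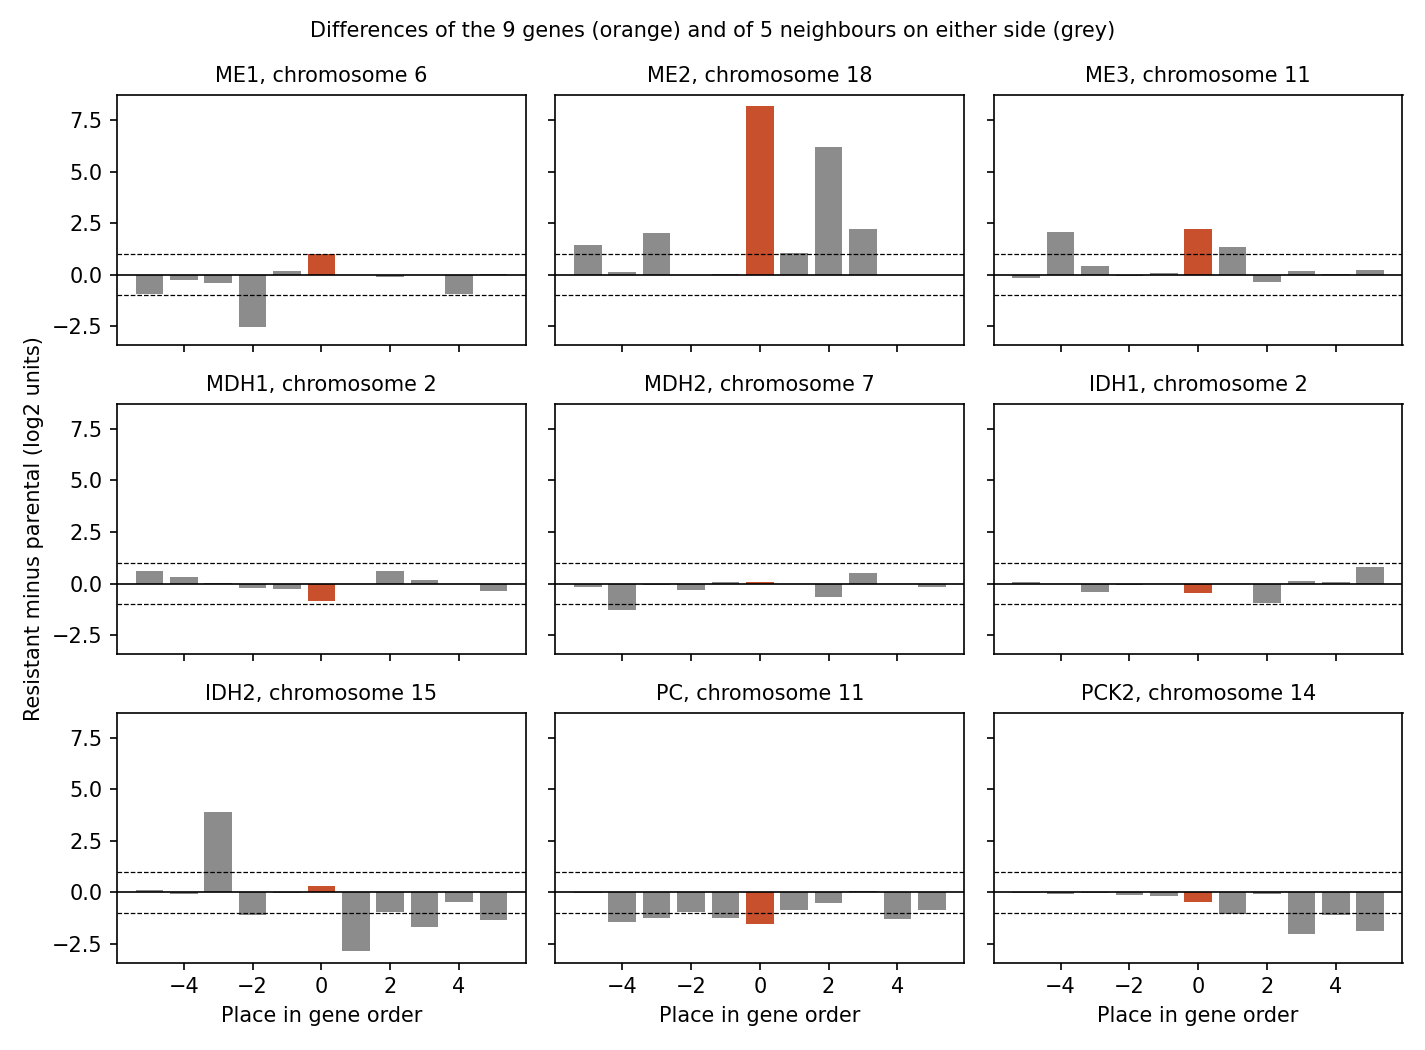
Difference in log2 units, array labelled as resistant minus parental, of each of the 9 genes (orange, place 0) and of the 5 named genes on either side in chromosomal order (grey). Dashed lines mark 2-fold. The neighbours of ME2 lean upward (median 0.61) and those of PC downward (median -0.90), while those of MDH1 and IDH1 stay within 2-fold.

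Of 16 other listed TCA cycle genes 13 were measured, and 1 was at least 2-fold higher and 0 lower. The shares over genes above background were 13.6% and 12.0%, and they also stand beside the counts of the lists below. The TCA cycle genes had a median difference of -0.11 and a range from -0.84 to 1.03. IDH3G, a regulatory subunit gene of the NAD-dependent isocitrate dehydrogenase, stood at 9.91 and 10.94. The catalytic subunit gene IDH3A stood at 12.73 and 12.65, and CS, the citrate synthase gene, at 13.65 and 13.95. Short of 2-fold, OGDH, a subunit gene of the 2-oxoglutarate dehydrogenase complex, was higher by 0.80 log2 units, and SUCLG2, a succinyl-CoA ligase subunit gene, differed by -0.84.

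Among the malate-aspartate shuttle and mitochondrial carrier genes, all 11 were measured and 10 were above background on at least 1 array. Of the 11, 1 was at least 2-fold higher and 1 lower, and the median was 0.09. SLC25A11, the malate and 2-oxoglutarate carrier that works with MDH1, had a parental value of 9.86 and stood at 8.46 on the array labelled as resistant. SLC25A13, an aspartate-glutamate carrier of the same shuttle, stood at 9.81 and 10.99. The aminotransferase genes of the shuttle, GOT1 (10.85 and 10.08) and GOT2 (14.61 and 13.90), were lower by less than 2-fold, as MDH1 was. SLC25A12, the other aspartate-glutamate carrier gene, was higher by less than 2-fold (8.66 and 9.14). Of the 11 differences in this list, 6 were positive and 5 negative.

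Other NADPH-forming enzymes and NAD kinases went both ways, with 9 of 11 measured, 1 at least 2-fold higher, 1 lower, and a median of 0.31. NNT, the mitochondrial transhydrogenase that makes NADPH from NADH, stood at 10.32 and 11.97. MTHFD1, the cytosolic enzyme of folate metabolism, stood at 15.55 and 13.28, 4.82-fold lower. PGD, an NADPH-forming enzyme of the pentose phosphate pathway, stood at 12.69 and 13.22.

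Pyruvate, lactate and gluconeogenesis genes had 18 of 19 measured, of which 14 were above background on at least 1 array. Of the 18, 4 were at least 2-fold higher and 3 lower, with a median of 0.34. FBP1, the fructose bisphosphatase of gluconeogenesis, was below background at 5.01 on the parental array and stood at 9.11 on the other, at least 16.3-fold higher. PDK1, a kinase that inhibits pyruvate dehydrogenase, stood at 7.72 and 9.61, while PDK3, another such kinase, was lower at 9.43 and 8.28. PDHX and PDHB, components of that complex, stood at 9.62 and 10.85 and at 7.94 and 9.04. PDP1, the phosphatase that activates the complex, stood at 10.01 and 8.71. PCK1, the cytosolic counterpart of PCK2, was below background on both arrays at 4.27 and 4.36.

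**Figure D5:**
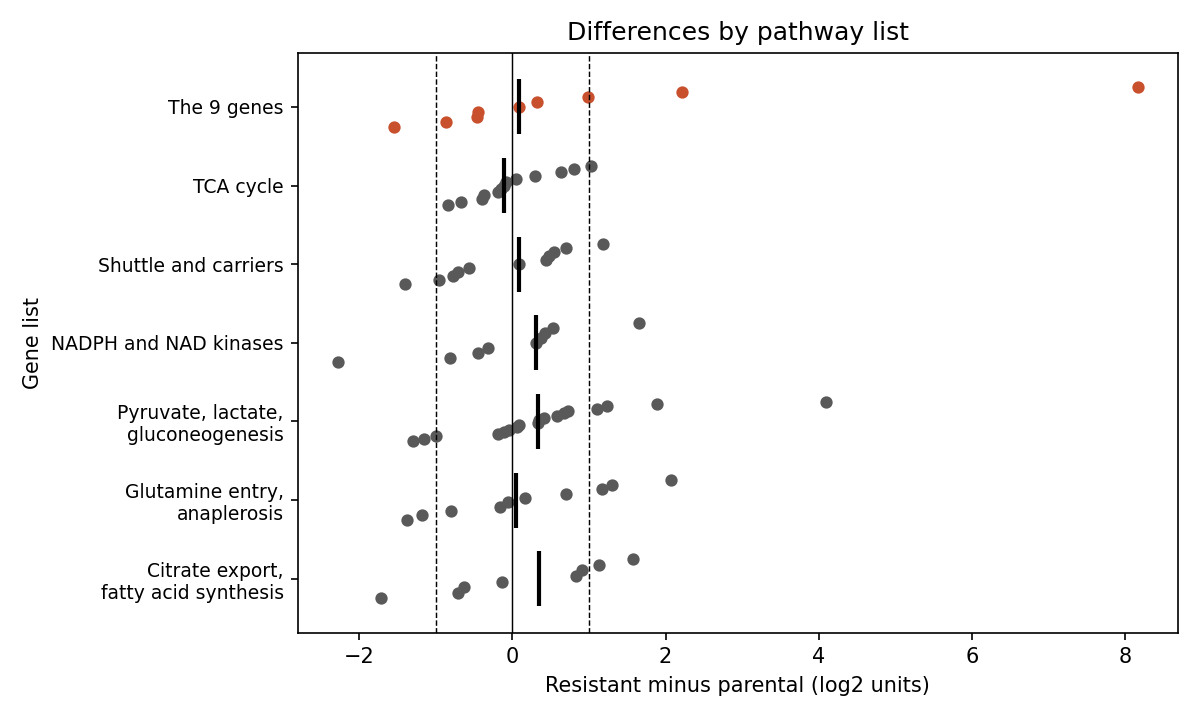
Difference in log2 units, array labelled as resistant minus parental, of the 9 genes (orange) and of the measured genes of 6 metabolic lists (dark grey), 1 point per gene with the median as a black bar. Dashed lines mark 2-fold. The medians lie between -0.11 and 0.35, and ME2 (8.16) and FBP1 (4.10) are the points farthest right.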

How the data were processed

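The deposited table holds log2 expression values of 67528 transcript clusters, with 1 array per line. The authors used Affymetrix Expression Console, per the submitters' processing notes; no source used here gives the algorithm, its version or the genome build. The log2 unit was inferred from the values, whose array medians were 4.79 (parental) and 4.72 (resistant). A platform annotation table gave 1 symbol for 23781 clusters, several for 1543 and none for 42204, and 21497 symbols were updated to RefSeq on GRCh38.p14, which also gave the gene order. For 479 genes with several clusters, that with the highest mean was used. Differences are resistant minus parental, and with 1 array per group there is no test and no precision beyond what 2 arrays give. Background was the 95th percentile of 364 olfactory receptor genes (5.09 and 5.03), a level set with the data known, and a gene at or below it on 1 array has a fold bound computed from it.

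The genes named are the 9 members, up to 4 genes per list (past 2-fold, above background, farthest from 0), and the 5 neighbours of ME2 on either side. Genes nearest to ME2 in value were also to be named, and are left out because levels of different clusters are not comparable and their parental values lie below background. Others were picked after their values were seen, and members and lists were chosen with earlier results of these data known. Python 3.11.15, pandas 2.3.3, numpy 2.4.6, statsmodels 0.14.6 and matplotlib 3.10.9 were used, and the scripts were tested on simulated data. Alternatives were median centring, quantile normalisation, loess, the mean of clusters, values raised to background, other thresholds and a background filter.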

Additional observations from a re-analysis of the deposited data

How the results depend on the processing

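The signs of all 9 differences were the same under median centring, quantile normalisation, loess correction, the mean of all clusters and values raised to background. ME1 ranged from 0.97 to 1.08 over these 5 alternatives, so that under median centring and quantile normalisation 3 of the 9 genes passed 2-fold upward. ME2 was 7.19 with values raised to background. PC ranged from -1.54 to -1.44 and ME3 from 2.21 to 2.30. At a 1.5-fold threshold 2 members were lower (PC and MDH1) and at 4-fold 0 were, while ME2 and ME3 stayed past 4-fold. No paired analysis was possible because each line had 1 array. The signal of dim genes such as PCK2, near background on both arrays, limits what a difference there can show.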

Other observations

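The list of glutamine entry and anaplerosis (the refilling of the TCA cycle) had 10 of 14 genes measured. Of these, 3 were at least 2-fold higher and 2 lower, with a median difference of 0.06 log2 units. SLC1A5, a glutamine transporter gene, stood at 10.05 on the parental array and 12.12 on the array labelled as resistant. PSAT1, which forms 2-oxoglutarate from glutamate during serine synthesis, stood at 12.75 and 14.05. MMUT, the mutase that leads propionate into the cycle, stood at 9.90 and 8.52. ASNS, the asparagine synthetase gene, whose enzyme uses glutamine rather than feeding the cycle, stood at 8.63 and 7.45. GLUD1, the glutamate dehydrogenase gene, stood at 11.20 and 11.36.

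The list of citrate export, aconitase and fatty acid synthesis had all 8 genes measured, with 2 at least 2-fold higher, 1 lower and a median of 0.35. Of these steps, fatty acid synthesis is a main use of cytosolic NADPH. The citrate carrier gene SLC25A1 was counted in the carrier list instead, at 8.46 and 9.16. FASN, the fatty acid synthase gene, stood at 12.71 and 11.00, 3.27-fold lower, while ME1 was 1.99-fold higher. ACO1, the cytosolic aconitase and iron-regulatory protein gene, stood at 7.98 and 9.56, and ACSS2, which makes acetyl-CoA from acetate, at 6.48 and 7.61. D2HGDH, which removes the 2-hydroxyglutarate that altered isocitrate dehydrogenases can form, stood at 7.29 and 7.32.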
